A study of Bos taurus with 18 samples.

Results

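The miR-30 paralogs described here are 5 bovine mature miRNAs, bta-miR-30a-5p, bta-miR-30b-5p, bta-miR-30c, bta-miR-30d and bta-miR-30e-5p, named below without the bovine prefix bta. They were chosen by name, and miR-30b-5p and miR-30c were set beside miR-30a-5p, miR-30d and miR-30e-5p in rumen papillae, on raw and adjusted counts. They are 5 of the 966 names in the library files and 5 of the 468 miRNAs that could be tested after names for the same miRNA were merged.

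Small RNA was sequenced from papillae, the projections that line the rumen, where microbes ferment the feed. The biopsies came from 9 Holstein cows that were not in milk and carried a rumen cannula. Each cow was sampled in a baseline period on forage alone (FD) and in a later period of high-grain feeding (HG; 65% concentrate), and 4 cows received a supplement labelled PHY while 5 served as controls (CON). The labels give 4 libraries in HG_PHY, 5 in HG_CON, 4 in FD_PHY and 5 in FD_CON. No genotype, age or transgene is named. The labels do not spell out PHY and do not say whether feeding of it had begun at the forage sampling. Since the forage period came first for all cows, diet and time cannot be told apart. Depth ran from 5.74 to 15.2 M (mega-reads) assigned to miRNAs, each counted once, in libraries of 19.5 to 42.7 M reads.

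MicroRNAs guide the repression of messenger RNAs, mainly through pairing of the seed near their 5′ end. The 5p members of the miR-30 family carry the same seed and are cut from separate hairpins, so they are predicted to share many targets while their own levels are set hairpin by hairpin. In human and mouse cells the family is known for acting on SNAI1, a repressor of epithelial genes, and on the autophagy gene BECN1.

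The library files hold 8 names of the family on 6 hairpins, and each name was seen in 18 of 18 libraries. The hairpins lie in pairs. Those of miR-30c and miR-30e-5p are on chromosome 3, with mature sequences 3125 nt apart in the authors' positions. Those of miR-30d and miR-30b-5p are on chromosome 14, 4440 nt apart, and those of miR-30f and miR-30a-5p are on chromosome 9, 37340 nt apart. RefSeq's bovine annotation (ARS-UCD2.0) lists the same 6 hairpins in the same pairs. There the miR-30c and miR-30e hairpins lie within the span of NFYC, a subunit of the CCAAT-binding transcription factor NF-Y, and the miR-30a hairpin lies within a protein-coding gene that has only a LOC symbol. The hairpins on chromosome 14 lie within no annotated gene, at 38793 nt (miR-30d) and 43222 nt (miR-30b) from the nearest, a long non-coding RNA. The comparison made here therefore crosses the pairs: miR-30b-5p shares its locus with miR-30d, and miR-30c shares its locus with miR-30e-5p. The authors' adjusted counts, which divide a read over the names and loci it fits, came to between 99.7% and 100% of the raw counts for every member in every library, so little of their reads was counted under another name. That ratio does not show whether a read with a mismatch was given to the right paralog.

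miR-30a-5p and miR-30e-5p were the most abundant members. Their levels are given in CPM, which are raw reads scaled between libraries by edgeR's TMM factors. miR-30a-5p averaged 22207 ± 8168 CPM (SD, n = 18) and ranked 11 among the 468 miRNAs, while miR-30e-5p averaged 15835 ± 1318 CPM and ranked 12. miR-30d followed with 8001 ± 894 CPM (rank 25), then miR-30c with 2508 ± 578 CPM (rank 44) and miR-30b-5p with 1948 ± 610 CPM (rank 51). Per nucleotide of mature length the order was the same, with mean levels of 925, 660, 333, 109 and 88.5 CPM per nt for miR-30a-5p, miR-30e-5p, miR-30d, miR-30c and miR-30b-5p. Within a library, miR-30e-5p exceeded miR-30d and miR-30d exceeded miR-30c in 18 of 18 cases. The neighbours at either end of the order were closer. miR-30a-5p exceeded miR-30e-5p in 15 of 18 libraries, of which 2 of 4 were HG_PHY libraries, and miR-30c exceeded miR-30b-5p in 17 of 18, the exception being FD_CON 2. Across libraries the ranges of both these pairs overlapped. Together the 5 members summed to 50983 ± 10928 CPM on grain and 50015 ± 9193 CPM on forage (SD, n = 9 each). Because of the scaling between libraries, these sums are not shares of a library's reads.

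The first question was which members differed between the diets, averaged over both arms. miR-30b-5p and miR-30c had lower values in high-grain papillae, and neither passed the threshold of 0.05 after adjustment. miR-30b-5p had 1572, 1518, 1710 and 1508 CPM in HG_PHY, and 1489, 2081, 1571, 1823 and 1621 CPM in HG_CON. On forage it had 1799, 1915, 1758 and 2100 CPM in FD_PHY, and 2314, 4178, 1931, 2208 and 1970 CPM in FD_CON. Of the HG libraries, 7 of 9 lay below every FD library, HG_CON 2 and HG_CON 4 being the others. FD_CON 2, at 4178 CPM, stood far above the other FD libraries. Means were 1655 ± 192 CPM on grain and 2241 ± 749 CPM on forage (SD, n = 9 each). The log2 fold change was -0.41 ± 0.13 (SE), with a Benjamini-Hochberg adjusted p of 0.192 by edgeR's quasi-likelihood test over 468 miRNAs. Without FD_CON 2 it was -0.30.

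miR-30c had 1720, 1895, 2470 and 1774 CPM in HG_PHY, and 1937, 3060, 2476, 2181 and 2101 CPM in HG_CON. On forage it had 2553, 2489, 2603 and 2768 CPM in FD_PHY, and 2682, 4065, 2595, 3337 and 2440 CPM in FD_CON. Here 6 of 9 HG libraries lay below every FD library, and HG_CON 2 stood above the FD mean. FD_CON 2, at 4065 CPM, was again the highest FD library and raised that mean. Means were 2179 ± 429 CPM on grain and 2837 ± 531 CPM on forage (SD, n = 9 each). The log2 fold change was -0.38 ± 0.11 (SE; edgeR, adjusted p = 0.165), and -0.34 without FD_CON 2.

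The other members had log2 fold changes nearer 0. miR-30d had 6938, 6279, 8659 and 6860 CPM in HG_PHY, and 7566, 8854, 8299, 8268 and 8153 CPM in HG_CON. On forage it had 8145, 7832, 8838 and 7541 CPM in FD_PHY, and 8224, 7923, 7149, 10198 and 8292 CPM in FD_CON. The diets overlapped over most of their range, with 3 of 9 HG libraries, all of them HG_PHY, below every FD library, and the log2 fold change was -0.10 ± 0.08 (SE; edgeR, adjusted p = 0.681). miR-30e-5p was the member with the narrowest spread. It had 17215, 17480, 17282 and 13621 CPM in HG_PHY, and 16589, 17461, 15589, 17027 and 15748 CPM in HG_CON. On forage it had 13430, 16072, 15644 and 15184 CPM in FD_PHY, and 13505, 15521, 15055, 15881 and 16727 CPM in FD_CON. For miR-30e-5p, 8 of 9 HG libraries lay above the FD mean and 5 of 9 above every FD library, with a log2 fold change of 0.11 ± 0.07 (SE; edgeR, adjusted p = 0.565).

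miR-30a-5p was the most variable member. It had 15993, 15720, 29889 and 17259 CPM in HG_PHY, and 20051, 44597, 20711, 21511 and 20720 CPM in HG_CON. On forage it had 15903, 18364, 23259 and 24746 CPM in FD_PHY, and 14225, 38315, 17169, 25312 and 15976 CPM in FD_CON. The diets overlapped almost completely, and the log2 fold change was 0.07 ± 0.20 (SE; edgeR, adjusted p = 0.918), a value that turned to as low as -0.07 when single libraries were left out.

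Counted as a family, 0 of 5 members were called in the diet comparison by edgeR's quasi-likelihood test, against 1 of 468 miRNAs, or 0.214%. DESeq2, limma-voom (here always with quality weights for the libraries) and limma on the deposited table also called 0 of 5. Over all 28 alternatives run, the count lay between 0 and 1. The 1 call was of miR-30c (edgeR, adjusted p = 0.0275), in the fit with a block for each replicate number within an arm. At an unadjusted p under 0.05 there were 2 of 5, miR-30b-5p and miR-30c, against 10.7% of all miRNAs. The members were chosen with earlier results of these data known, so these counts only describe them. The members' median log2 fold change was -0.10, with 3 of 5 below 0, beside -0.01 over all miRNAs tested and 50.9% of them below 0. No member separated the 2 diets without overlap, and of the 468 miRNAs 0% lay lower on grain without overlap. The data are of bulk tissue, so fewer cells of a type and less RNA per cell cannot be told apart. The model treats 18 libraries from 9 cows as independent, and p-values measure the spread between these libraries.

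**Figure D1:**
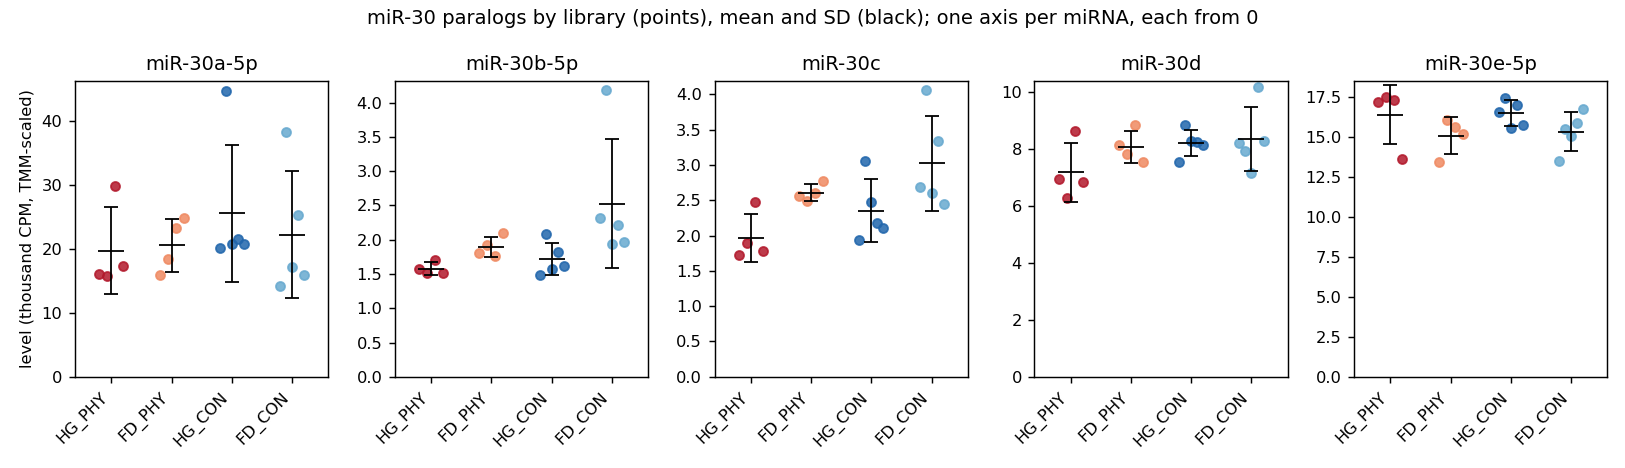
Level of each miR-30 member (in units of 1000 CPM, TMM-scaled) in each library (points), with the group mean and SD (black), each panel with its own axis from 0. The miR-30b-5p and miR-30c points of HG_PHY and HG_CON mostly sit below those of FD_PHY and FD_CON, the miR-30d and miR-30e-5p points overlap between diets, and HG_CON 2 (44597 CPM) and FD_CON 2 (38315 CPM) stand above the rest for miR-30a-5p.

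Ratios between members within a library do not depend on the scaling between libraries. The summed reads of miR-30b-5p and miR-30c, as a percent of the summed reads of miR-30a-5p, miR-30d and miR-30e-5p, were 8.20, 8.64, 7.49 and 8.70 in HG_PHY, and 7.75, 7.25, 9.07, 8.55 and 8.34 in HG_CON. On forage they were 11.6, 10.4, 9.14 and 10.2 in FD_PHY, and 13.9, 13.3, 11.5, 10.8 and 10.8 in FD_CON. The ratio was lower in 9 of 9 HG libraries than in every FD library. How often ratios of other summed miRNAs separate the diets was not counted. The gap was narrow at its edge, with HG_CON 3 at 9.07% and FD_PHY 3 at 9.14%, and the diets overlapped when miR-30a-5p was left out of the divisor. As a percent of miR-30d and miR-30e-5p alone, the reads of miR-30b-5p and miR-30c came to between 13.6% and 19.5% in HG libraries (median 15.8%) and between 17.6% and 35.2% in FD libraries (median 20.4%). There 8 of 9 HG libraries lay below every FD library. HG_CON 2, at 19.5%, lay among the FD libraries, and without HG_CON 2 the diets did not overlap. With all 3 divisors the mean was 8.22% ± 0.61 on grain and 11.3% ± 1.51 on forage (SD, n = 9 each), and the log2 difference averaged over the arms was -0.44. The grouping of the members was made with earlier results of these libraries known, so the ratio is given as a description with no test.

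Ratios of single members did not separate the diets. Of the 10 ratios between 2 single members, 0 separated the diets over both arms, beside 0.633% of the 3003 ratios between any 2 miRNAs of at least 1000 CPM. In PHY cows 2 of 10 did, beside 10.3% of the 3003, and in CON cows 1 of 10 did, beside 2.73%. Shares of the family's reads showed the same make-up: miR-30b-5p took 3.30% ± 0.34 on grain and 4.45% ± 0.84 on forage, and miR-30c took 4.29% ± 0.34 on grain and 5.69% ± 0.48 on forage (SD, n = 9 each). The share of miR-30a-5p was 43.8% on grain and 41.9% on forage, that of miR-30d was 15.5% on grain and 16.8% on forage, and that of miR-30e-5p was 33.1% on grain and 31.1% on forage.

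The ratios between partners of 1 locus were also lower on grain in their medians, with overlap between the diets. On chromosome 3, miR-30c reads came to between 9.99% and 17.5% of miR-30e-5p reads in HG libraries (median 13.0%) and between 14.6% and 26.2% in FD libraries (median 18.2%). The log2 difference in this ratio was -0.49, and 7 of 9 HG libraries lay below every FD library. On chromosome 14, miR-30b-5p reads came to between 18.9% and 24.2% of miR-30d reads in HG libraries (median 21.98%) and between 19.9% and 52.7% in FD libraries (median 24.5%). That ratio differed by -0.31 on the log2 scale, with 4 of 9 HG libraries below every FD library and the highest FD value, 52.7%, in FD_CON 2, without which the difference was -0.18. The chromosome 14 difference was -0.08 in PHY cows, between -0.16 and 0.00 with single libraries left out, and -0.49 in CON cows, or -0.27 without FD_CON 2, while the chromosome 3 difference was -0.54 in PHY cows and -0.46 in CON cows. Across loci, the ratio of miR-30c to miR-30b-5p differed by -0.16 between the diets in PHY cows and by 0.14 in CON cows on the log2 scale, which came to 0.01 over both arms. In PHY cows 3 of 4 HG_PHY libraries lay below every FD_PHY library, and the CON value was 0.06 without FD_CON 2. The ratio of miR-30d to miR-30e-5p was also lower on grain, by -0.20 over both arms on the log2 scale. There 3 of 9 HG libraries lay below every FD library. The difference was -0.30 in PHY cows and -0.12 in CON cows, or -0.06 in CON cows without FD_CON 4.

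**Figure D2:**
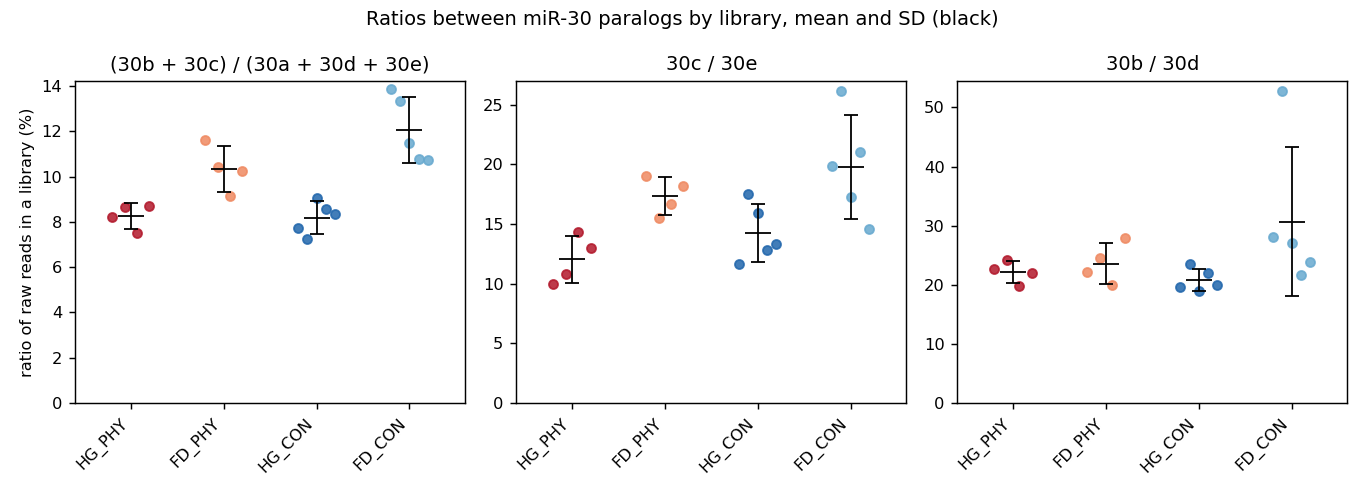
Ratio of raw reads within a library (percent) for miR-30b-5p plus miR-30c over miR-30a-5p plus miR-30d plus miR-30e-5p, for miR-30c over miR-30e-5p and for miR-30b-5p over miR-30d, with each library as a point and the group mean and SD in black. In the left panel the HG libraries lie between 7.25% and 9.07% and the FD libraries between 9.14% and 13.9%, while in the other panels the diets overlap.

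Within the arms, the diet comparison gave values of the same direction for both members. In CON cows, miR-30b-5p averaged 1717 ± 238 CPM on grain and 2520 ± 941 CPM on forage (SD, n = 5 each), with a log2 fold change of -0.55 ± 0.17 (SE; edgeR, adjusted p = 0.397) that was -0.34 without FD_CON 2. miR-30c averaged 2351 ± 442 CPM on grain and 3024 ± 675 CPM on forage in CON cows, with a log2 fold change of -0.36 ± 0.15 (SE; edgeR, adjusted p = 0.397). In CON cows 0 of 5 members were called, and 0% of the 468 miRNAs, by edgeR as by DESeq2, limma-voom and limma on the deposited table, and 3 of 5 members and 53.8% of all miRNAs had a log2 fold change below 0. At an unadjusted p under 0.05 there were 2 of 5 members, again miR-30b-5p and miR-30c, against 10.7% of all miRNAs.

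In PHY cows, miR-30b-5p averaged 1577 ± 93.2 CPM on grain and 1893 ± 153 CPM on forage (SD, n = 4 each), with a log2 fold change of -0.26 ± 0.19 (SE; edgeR, adjusted p = 0.832). miR-30c averaged 1965 ± 345 CPM on grain and 2603 ± 119 CPM on forage, with a log2 fold change of -0.41 ± 0.17 (SE; edgeR, adjusted p = 0.647). In this arm 4 of 4 HG_PHY libraries lay below every FD_PHY library for both miRNAs, as they did for 2.78% of the 468 miRNAs. By edgeR 0 of 5 members and 0% of all miRNAs were called, and at an unadjusted p under 0.05 there were 1 of 5, miR-30c, against 7.05%. In PHY cows 4 of 5 members and 49.4% of all miRNAs had a log2 fold change below 0. limma-voom called 1 of all miRNAs, which was no member, and DESeq2 and limma on the deposited table called 0.

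The other members gave smaller values in each arm. In PHY cows the log2 fold changes were -0.06 ± 0.30 for miR-30a-5p, -0.17 ± 0.12 for miR-30d and 0.12 ± 0.11 for miR-30e-5p, and in CON cows they were 0.20 ± 0.27, -0.02 ± 0.11 and 0.10 ± 0.10 (edgeR, SE). The difference between the arms was tested as the diet by supplement interaction. It was 0.29 ± 0.25 for miR-30b-5p, or 0.08 without FD_CON 2, and -0.04 ± 0.22 for miR-30c (log2, SE), and the edgeR adjusted p was 0.997 for all 5 members. There, 0 of 5 members and 0% of all miRNAs were called, and 0 of 5 members and 2.14% of all miRNAs had an unadjusted p under 0.05.

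**Figure D3:**
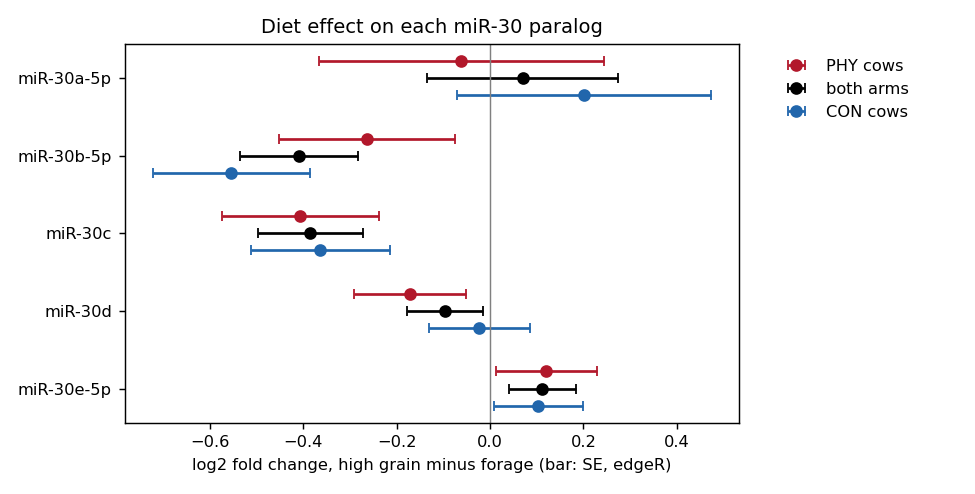
Log2 fold change, high grain minus forage, of each miR-30 member with its SE from edgeR, in PHY cows (red), over both arms (black) and in CON cows (blue). The values of miR-30b-5p lie at -0.26, -0.41 and -0.55 and those of miR-30c at -0.41, -0.38 and -0.36, while those of the other members lie nearer 0, and no member passed the adjusted threshold.

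PHY was compared with CON on each diet. On grain, all 5 members had log2 fold changes below 0, as did 49.8% of all miRNAs. They were -0.37 ± 0.29 for miR-30a-5p, -0.12 ± 0.18 for miR-30b-5p, -0.26 ± 0.16 for miR-30c, -0.20 ± 0.11 for miR-30d and -0.01 ± 0.10 for miR-30e-5p (edgeR, SE), with adjusted p between 0.677 and 0.996. edgeR called 0 of 5 members and 0% of all miRNAs, with 0 of 5 and 6.84% at an unadjusted p under 0.05, and DESeq2 called 2 miRNAs, neither a member. Without HG_CON 2 the values were -0.05 for miR-30a-5p, -0.02 for miR-30b-5p and -0.12 for miR-30c. The ratio of miR-30b-5p plus miR-30c to the other members differed by 0.01 between HG_PHY and HG_CON on the log2 scale, with means of 8.26% ± 0.56 (SD, n = 4) and 8.19% ± 0.71 (SD, n = 5).

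On forage the comparison of PHY with CON comes from the same cows before grain, and again all 5 members lay below 0, as did 55.6% of all miRNAs. miR-30b-5p averaged 1893 ± 153 CPM in FD_PHY (SD, n = 4) and 2520 ± 941 CPM in FD_CON (SD, n = 5), with a log2 fold change of -0.41 ± 0.18 (SE; edgeR, adjusted p = 0.929). That value was -0.16 without FD_CON 2, and that of miR-30c was then -0.09. The other members had -0.11 ± 0.29 (miR-30a-5p), -0.22 ± 0.16 (miR-30c), -0.05 ± 0.11 (miR-30d) and -0.02 ± 0.10 (miR-30e-5p). By edgeR 0 of 5 members and 0% of all miRNAs were called, and at an unadjusted p under 0.05 there were 1 of 5 and 4.7%, while DESeq2 called 1 miRNA, which was no member. The summed ratio was 10.4% ± 1.01 in FD_PHY (SD, n = 4) and 12.1% ± 1.47 in FD_CON (SD, n = 5). It differed by -0.22 on the log2 scale, with 3 of 4 FD_PHY libraries below every FD_CON library.

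The members also differed in how far libraries of 1 group lay apart. The SD of log2 CPM within groups was 0.48 for miR-30a-5p, and only 2 of the 78 miRNAs with a mean of at least 1000 CPM had a larger one. For miR-30e-5p it was 0.12, and 74 of the 78 had a larger one. miR-30b-5p (0.27), miR-30c (0.24) and miR-30d (0.15) lay nearer the median of these miRNAs, 0.23.

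The highest miR-30a-5p value on each diet was in replicate 2 of CON. HG_CON 2 had 2.15 times the mean of the other HG_CON libraries and FD_CON 2 had 2.11 times that of the other FD_CON libraries. miR-30f, from the neighbouring hairpin on chromosome 9, stood out in the same libraries, at 2.79 times in HG_CON 2 and 2.73 times in FD_CON 2. hsa-miR-30c-2-3p, a human name placed on the miR-30f hairpin, was at 1.98 times in HG_CON 2 and 2.44 times in FD_CON 2. miR-30b-5p was at 1.28 times in HG_CON 2 and 1.98 times in FD_CON 2, and miR-30c at 1.41 times in HG_CON 2 and 1.47 times in FD_CON 2. miR-30d stood at 1.10 times in HG_CON 2 and 0.94 times in FD_CON 2, and miR-30e-5p at 1.08 times in HG_CON 2 and 1.02 times in FD_CON 2, so the levels of these members were close to those of the other CON libraries. The labels do not say whether libraries with the same number come from the same cow.

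The levels of the hairpin neighbours on chromosome 9 were high and low in much the same libraries. The Pearson correlation of log2 CPM of miR-30a-5p and miR-30f was 0.89 over 18 libraries, and 0.77 over 16 without HG_CON 2 and FD_CON 2. That of miR-30b-5p and miR-30c, from different chromosomes, was 0.86, and 0.82 over the 16. With its own neighbour miR-30d, miR-30b-5p gave 0.30, and 0.52 over the 16, and miR-30c gave -0.13 with miR-30e-5p, and -0.25 over the 16. miR-30c gave 0.63 with miR-30a-5p, and 0.38 over the 16, and 0.81 with miR-30f, and 0.70 over the 16. After the group means were taken out, miR-30c correlated with miR-30a-5p at 0.91, with miR-30f at 0.87 and with miR-30b-5p at 0.77 over the 18 libraries. These 18 include HG_CON 2 and FD_CON 2, and values after group means were not computed over the 16. These correlations are descriptions over libraries that share scaling, cows and the diet difference, and no p is given.

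Outside the family, the closest patterns to miR-30b-5p were those of miR-143 (0.88), hsa-miR-145-5p (0.88) and miR-365-3p (0.87), by Pearson correlation of log2 CPM over 18 libraries among 268 miRNAs of at least 10 CPM. For miR-30c they were hsa-miR-29b-3p (0.86), hsa-miR-145-3p (0.84) and miR-143 (0.82). For miR-30a-5p they were miR-499 (0.80), miR-1839 (0.78) and miR-455-5p (0.76), and for miR-30d hsa-miR-96-5p (0.75), hsa-miR-15a-5p (0.69) and hsa-miR-148a-5p (0.64). For miR-30e-5p they were hsa-miR-374b-3p (0.78), hsa-miR-141-3p (0.70) and miR-186 (0.69). After the group means were taken out, miR-30b-5p gave 0.77 with miR-143, 0.79 with hsa-miR-145-5p and 0.82 with miR-365-3p. miR-30c then gave 0.79 with hsa-miR-29b-3p, 0.81 with hsa-miR-145-3p and 0.64 with miR-143. All these values include FD_CON 2 and HG_CON 2. miR-143 and miR-145 are abundant in smooth muscle and other mesenchymal cells, and miR-141 belongs to the epithelial miR-200 family.

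Markers of several other cell types also had lower means on grain. The summed level of 6 muscle miRNAs (miR-143, miR-145, miR-1, miR-133a, miR-133b and miR-206) was between 102603 and 133027 CPM in HG libraries and between 129264 and 297900 CPM in FD libraries, and 5 of 6 had a lower mean on grain. miR-143 made up most of that sum, while the striated muscle markers miR-133b and miR-206 were at 0 in 6 and 8 of 18 libraries. FD_CON 2, the library with the highest miR-30b-5p, had the highest muscle sum, and HG_CON 2 had 130701 CPM. Fibroblast miRNAs had a lower mean on grain in 6 of 6, with sums of 7350 to 11102 CPM in HG and 8012 to 12276 CPM in FD libraries, and endothelial ones in 3 of 3, with 9715 to 14386 CPM in HG and 13316 to 16551 CPM in FD libraries. Leukocyte miRNAs were lower in 5 of 7, with sums of 4836 to 7850 CPM in HG and 5432 to 7972 CPM in FD libraries. Erythroid miRNAs were lower in 0 of 3, with 6415 to 18352 CPM in HG and 6404 to 14199 CPM in FD libraries. Markers of stratified epithelium, which lines the papillae, were found for 6 of 7 names, miR-205 among them at a mean of 28643 CPM. Their sum was between 50196 and 69567 CPM in HG and between 52551 and 71561 CPM in FD libraries. Of these markers, 2 of 6 had a lower mean on grain and the others a higher one. The part of these cell types in the miR-30b-5p and miR-30c values was not tested.

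**Figure D4:**
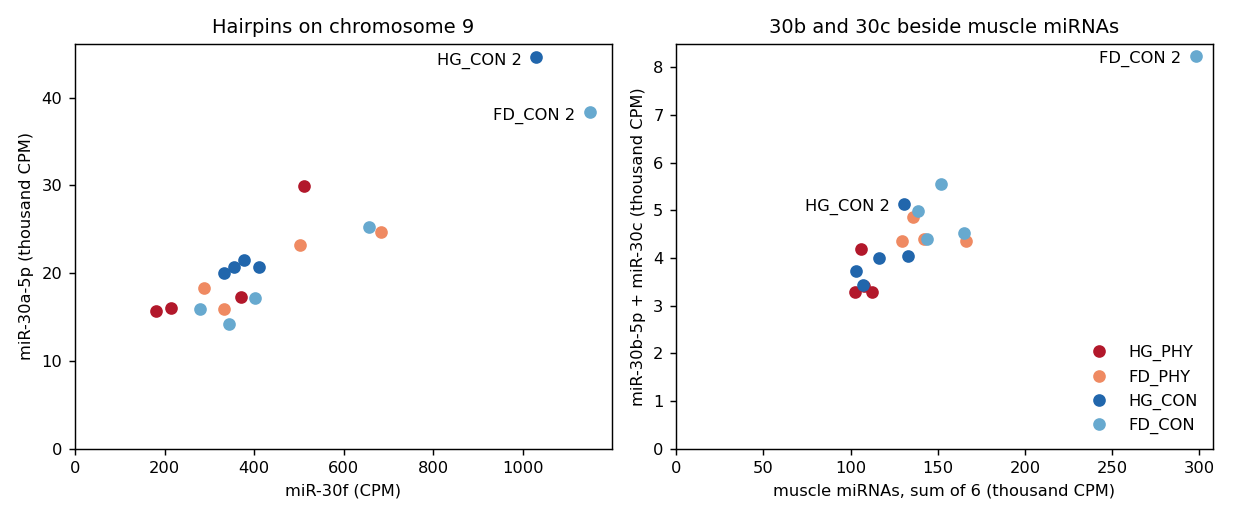
Left, miR-30a-5p (in units of 1000 CPM) against miR-30f (CPM), whose hairpins are neighbours on chromosome 9. Right, the sum of miR-30b-5p and miR-30c (in units of 1000 CPM) against the sum of 6 muscle miRNAs (in units of 1000 CPM), with each point a library coloured by group. HG_CON 2 and FD_CON 2 are named: both lie at the upper end on the left, with 1030 and 1150 CPM of miR-30f, and FD_CON 2 lies apart on the right with a muscle sum of 297900 CPM.

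The remaining names of the family were scarcer. miR-30f averaged 420 ± 249 CPM on grain and 515 ± 282 CPM on forage (SD, n = 9 each), with a log2 fold change of -0.34 ± 0.29 (SE; edgeR, adjusted p = 0.708) and 2 of 9 HG libraries below every FD library. hsa-miR-30c-2-3p averaged 17.4 ± 7.66 CPM on grain and 16.1 ± 8.30 CPM on forage, with a log2 fold change of 0.11 ± 0.27 (SE; edgeR, adjusted p = 0.918). miR-30b-3p, the opposite arm of the miR-30b hairpin, averaged 5.66 ± 1.79 CPM on grain and 5.33 ± 1.23 CPM on forage, with a log2 fold change of 0.12 ± 0.20 (SE; edgeR, adjusted p = 0.886). None of these passed the threshold.

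Both hairpins with an arm pair in the files had fewer 5p reads per 3p read on grain, in means over libraries. For the miR-30b hairpin the ratio of miR-30b-5p to miR-30b-3p was 322 ± 115 on grain and 427 ± 114 on forage (SD, n = 9 each), a log2 difference of -0.44. The difference was -0.77 in PHY cows, where 4 of 4 HG_PHY libraries lay below every FD_PHY library. Of the 3003 ratios between 2 miRNAs of at least 1000 CPM, 10.3% separated the diets in PHY cows, in either direction. miR-30b-3p lay far below that level. In CON cows the difference was -0.19, or between -0.32 and -0.02 with single CON libraries left out. The diets overlapped over both arms, with 4 of 9 HG libraries (3 of HG_PHY and HG_CON 3) below every FD library. miR-30b-3p rested on 19 to 77 raw reads per library, which limits that ratio. For the miR-30f hairpin the ratio of miR-30f to hsa-miR-30c-2-3p was 23.8 ± 5.03 on grain and 31.9 ± 3.79 on forage, a log2 difference of -0.44 (-0.54 in PHY cows and -0.36 in CON cows), with 5 of 9 HG libraries below every FD library. hsa-miR-30c-2-3p rested on 45 to 433 raw reads per library.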

How the data were processed

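The 18 papilla libraries came from a NETflex small RNA kit and NucleoSpin miRNA extracts, per the labels' protocols. bcl2fastq 2.20 and DESeq2 are named in the submitters' processing notes without a role, and the aligner, counter and build were not given in the sources used here. Each library file holds, per the file headers, a raw read count per mature name, an expected count that the authors divided over the names and loci a read fits, and RPM by the authors, used here only for read totals. The deposited table holds a signal normalized by the authors for 673 names. Scaled back by 1 size factor per library, 100% of its values were whole reads within 0.01 reads, and edgeR on these reads called 2 of 559 miRNAs in the diet comparison over both arms.

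Names overlapping by at least 15 nt, or bovine and human names of 1 miRNA whose totals agreed to 5%, were merged, and 824 of 966 names remained. Names without a prefix are bovine and hsa marks human entries. Raw counts were tested with edgeR 4.0.16 (R 4.3.3, quasi-likelihood, TMM, filterByExpr, 468 miRNAs, 1 mean per group, two-sided, Benjamini-Hochberg adjustment, threshold 0.05), after the test was checked on simulated counts. DESeq2 1.42.0 and limma 3.58.1 were alternatives, with rounded expected counts, other filters and scalings, a replicate block and each library left out. limma-voom was run with quality weights for the libraries. The members, the marker lists and the comparison of miR-30b-5p and miR-30c with the others were chosen with earlier results of these data known. The miRNAs named are the 5 members, the other miR-30 names and, for each member, the 3 others of at least 10 CPM with the most similar pattern. Between pairs of libraries of a group, the chi-square per degree of freedom was at least 111, so none was treated as a copy. Replicates thus differed by far more than counting noise at these depths.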

Additional observations from a re-analysis of the deposited data

Results flagged for a closer look

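Among the 36 sets of values checked (each name of the family in each group, and the summed ratio), 5 held a library far from the others of its group. Chance gives about 1 in 20 for independent, normally distributed sets. These sets share libraries, so the count of 5 cannot be set against that rate. miR-30a-5p was at 29889 CPM in HG_PHY 3, with the other HG_PHY libraries between 15720 and 17259 CPM. It was at 44597 CPM in HG_CON 2, with the other HG_CON libraries between 20051 and 21511 CPM. miR-30f was at 1030 CPM in HG_CON 2, with the others between 332 and 411 CPM. miR-30b-5p was at 4178 CPM in FD_CON 2, with the others between 1931 and 2314 CPM. miR-30e-5p was at 13621 CPM in HG_PHY 4, below the others at 17215 to 17480 CPM.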

How the results depend on the processing

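Over the 6 comparisons, the 30 member log2 fold changes gave 830 values under the alternatives, of which 785 kept their direction and 45 turned. Those of miR-30b-5p and miR-30c between the diets kept it over both arms and in each arm. Over both arms they lay between -0.45 and -0.30 (adjusted p between 0.0544 and 0.327) for miR-30b-5p and between -0.44 and -0.34 (adjusted p between 0.0275 and 0.327) for miR-30c. The call for miR-30c was made under 1 alternative, the replicate block, with a log2 fold change of -0.39 and an edgeR adjusted p of 0.0275. The block gave 1 member and 4 of all miRNAs called, and miR-30b-5p had an adjusted p of 0.0544. Replicate numbers were not taken as pairs, because the labels do not say that a number is a cow. A check of whether same-numbered libraries deviated together did not settle this. Correlations of the 9 pairs ran from -0.016 to 0.39, and 3 of 9 were over 0.1. In that check 4 of 9 pairs correlated best with their own number. Over both arms, the SE with the block was 0.094 for miR-30a-5p, 0.088 for miR-30b-5p and 0.081 for miR-30c. Without it these were 0.20, 0.13 and 0.11. For miR-30d and miR-30e-5p the SE was 0.071 and 0.070 with the block, and 0.081 and 0.072 without it. Whether a number stands for a cow therefore bears on the calls.

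Over both arms, all miRNAs called numbered 1, and 0 with upper-quartile scaling, with a filter of 10 CPM in 4 libraries and with adjusted counts. They numbered 2 with names not merged, with recovered reads (an alternative chosen after seeing the data) and with limma on the deposited table, 3 with no filter, 4 with limma-voom, 5 with DESeq2, and 0 to 3 when single libraries were left out. In PHY cows limma-voom called 1. For PHY against CON, DESeq2 called 2 on grain and 1 on forage, no filter called 1 on forage, and leaving out libraries gave 0 to 2 on grain and 0 to 1 on forage. The cause was not tested.

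Apart from the fits with a library left out, the values that turned were small. For miR-30e-5p they were 0.0036 (filter of 10 CPM) and 0.013 (names not merged) for PHY against CON on grain. For its interaction they were -0.014 (no filter), -0.0065 (DESeq2), -0.0030 (limma-voom) and -0.013 (limma on the deposited table). For miR-30a-5p PHY against CON on forage was 0.016 with limma-voom. Leaving out single libraries gave ranges across 0 for miR-30a-5p of -0.075 to 0.19 over both arms, -0.092 to 0.44 in CON, -0.31 to 0.039 in PHY, -0.24 to 0.17 for PHY against CON on forage and -0.53 to 0.035 for the interaction. For miR-30d they were -0.085 to 0.058 in CON and -0.10 to 0.034 on forage, for miR-30c -0.16 to 0.078 for the interaction, and for miR-30e-5p -0.064 to 0.098 on grain, -0.069 to 0.044 on forage and -0.043 to 0.11 for the interaction.

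The log2 difference in the summed ratio lay between -0.47 and -0.41 with adjusted counts, the deposited table, mean log2 CPM or any 1 library left out, and the diets did not overlap under any of these. Without miR-30a-5p in the divisor, an alternative chosen after seeing the data, the difference was -0.43 and the diets overlapped, with 8 of 9 HG libraries below every FD library. Depth limits only the 3p arms, with 19 to 77 reads of miR-30b-3p per library.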
